A study of Rattus norvegicus with 4 samples.

Results

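The vacuolar ATPase (V-ATPase) is the proton pump that acidifies lysosomes, endosomes and the phagosomes in which macrophages digest what they engulf. Its V1 sector, on the cytosolic face of the membrane, hydrolyses ATP and turns a rotor. The V0 sector, within the membrane, carries protons through a ring of proteolipid subunits. Expression of 10 genes of the pump's core was examined, 3 of V0 (Atp6v0b, Atp6v0c and Atp6v0d1) and 7 of V1 (Atp6v1a, Atp6v1b2, Atp6v1c1, Atp6v1d, Atp6v1e1, Atp6v1f and Atp6v1h). They were chosen by name, with earlier results of these data known, and all their probes that matched a rat gene symbol were taken. This gave 13 probes, among 21109 probes of 16581 named genes.

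The cells were NR8383, an established alveolar macrophage line that derives from lung lavage of a healthy rat, after 20 passages. All 4 cultures had received titanium dioxide particles (NM105, also sold as P25, a mixture of anatase and rutile), dosed as 3 cm2 of particle surface on each cm2 of culture and left on the cells for 4 h. Cy3-labelled RNA from each culture went onto its own array, and replicates 1 to 4 form a single group. The untreated cultures that the study describes were not analysed here, so no value below is a response to the particles. The study calls its cultures biological replicates, and they come from 1 cell line.

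The reference signal of the arrays ran from 585 to 1431 intensity units, highest on replicate 1 and lowest on replicate 2. The 99th percentile of the negative control spots was between 5.07 and 5.96 units. Of 11 macrophage markers measured, 8, among them Cd68, Itgam and Tyrobp, passed on every array, 1 on some, and 2, Adgre1 and Mertk, on none. Of 8 alveolar macrophage markers, 5 were detected on all 4 arrays, Pparg among them, and 3 on none, the scavenger receptor gene Marco among them. None of 6 epithelial markers was detected on any array. Of the 5 measured markers each of fibroblasts, endothelium and T and B cells, 0, 3 (Pecam1, Cdh5 and Vwf) and 2 (Cd4 and Pax5) were detected on all 4 arrays.

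All 10 subunit genes were expressed in the exposed cells. Each had a probe well above background on all 4 arrays, against 35.2% of all named genes (5830 of 16581). The members were chosen with earlier results of these data known. Isoforms detected on no array fell in a separate list, so the comparison with all genes is no test. Of the 13 probes, 12 passed on all 4 arrays. The call of signal well above background is the scanner software's, made spot by spot. A level is the log2 signal minus the array's own reference, the 75th percentile of the probes detected on all 4 arrays. It serves to set 1 gene's arrays side by side, and no gene was ranked against another by level, since probes differ in brightness.

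In V0, Atp6v0c encodes the main proteolipid of the proton-carrying ring. Its level was 2.60, 2.91, 2.60 and 2.51 on replicates 1 to 4, with a mean of 2.65 ± 0.17 (SD, n = 4). Replicate 2 was highest and the other arrays lay close together, with an SD of 0.043 without replicate 2. Atp6v0b encodes a second, related proteolipid of the ring. It was at 2.58, 3.06, 3.17 and 3.18 on replicates 1 to 4, a mean of 3.00 ± 0.28. Here replicate 1 stood lowest, 1.51-fold under the highest array, and without replicate 1 the SD was 0.063. Atp6v0d1 encodes the subunit that couples the ring to the V1 rotor. It was at 0.81, 0.57, 0.39 and 0.38, a mean of 0.54 ± 0.20, with replicate 1 highest and an SD of 0.105 without it. The V0 genes therefore did not share an order of arrays: replicates 3 and 4 were highest and nearly level for Atp6v0b. Replicate 2 was highest for Atp6v0c and replicate 1 for Atp6v0d1.

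Lysosomal genes carry in many promoters an E-box element that is bound by the transcription factor TFEB and its relatives, and V-ATPase genes are known among them. RefSeq promoters (build GRCr8, from 250 bases before to 50 after the gene's start) were at hand for 7 of the 10 genes, Atp6v0b, Atp6v0c, Atp6v0d1, Atp6v1a, Atp6v1d, Atp6v1e1 and Atp6v1f. The E-box core CACGTG, which reads the same on both strands, was in 1 of the 7, that of Atp6v0d1. It was in 6.65% of all 27457 promoters and in 10.5% of the 4926 promoters of genes detected on all 4 arrays. The longer form TCACGTG, on either strand and overlapping the core, was in the same promoter. It was in 3.43% of all promoters and in 6.33% of those of genes detected on all 4 arrays. Among 12 promoters of other V-ATPase genes, only that of Atp6v0e1 held the core, from the 25th base after its start. The 250 bases before the start of Atp6v0d1 (GRCr8, chr19:50357249-50357498, minus strand) are shown because they hold the match, in capitals, which begins 52 bases before the start. The same stretch of Atp6v1e1 (GRCr8, chr4:155716661-155716910, minus strand) is shown because its level differed most between arrays, and it holds no match.
Atp6v0d1: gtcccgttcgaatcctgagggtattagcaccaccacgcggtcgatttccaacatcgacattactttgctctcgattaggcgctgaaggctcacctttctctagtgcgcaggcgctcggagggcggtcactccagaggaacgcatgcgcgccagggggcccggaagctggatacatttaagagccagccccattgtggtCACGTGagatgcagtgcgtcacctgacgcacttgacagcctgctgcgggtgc
Atp6v1e1: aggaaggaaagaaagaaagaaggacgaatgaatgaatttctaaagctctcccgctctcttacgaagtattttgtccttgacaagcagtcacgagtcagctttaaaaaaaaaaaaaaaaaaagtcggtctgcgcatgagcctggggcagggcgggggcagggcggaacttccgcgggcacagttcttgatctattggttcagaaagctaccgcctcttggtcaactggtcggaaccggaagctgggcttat

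In V1, Atp6v1a encodes the catalytic subunit that binds and splits ATP. Its level was −1.26 on replicate 1 and −2.01, −1.76 and −1.81 on replicates 2 to 4, a mean of −1.71 ± 0.32. Replicate 1 was highest, 1.69-fold above replicate 2, and without replicate 1 the SD was 0.135. Over all 4 arrays the SD was 0.062 after normexp background correction, against 0.32 in the main values. Atp6v1b2 encodes the partner subunit of the catalytic hexamer, in the isoform that most tissues use. It was at 1.41, 1.76, 1.62 and 1.51, a mean of 1.58 ± 0.15, with replicate 1 lowest. Its SD was 0.099 without replicate 2. In the main values the catalytic pair thus had opposite arrays at the extremes, replicate 1 highest for Atp6v1a and lowest for Atp6v1b2. The 2 genes differ in level, and the place of replicate 1 depended on level. Among genes within 0.5 of the mean level of each, replicate 1 was lowest for 19.3% (Atp6v1a) and 34.1% (Atp6v1b2).

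Atp6v1d and Atp6v1f encode parts of the central stalk, the rotor that links ATP hydrolysis to the ring. Atp6v1d was at −1.57, −1.54, −1.41 and −1.50 on replicates 1 to 4, a mean of −1.51 ± 0.07, and the SD was 0.041 without replicate 3. Atp6v1f was at 1.96, 1.91, 1.69 and 1.76, a mean of 1.83 ± 0.13. The highest array was 1.12-fold above the lowest for Atp6v1d and 1.21-fold for Atp6v1f.

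The other 3 genes belong to the outer stalks and to control of the pump. Atp6v1c1 encodes the subunit that holds the stalks to V0 and from which V1 detaches when the pump is switched off. It was at −1.75, −1.82, −1.79 and −1.76, a mean of −1.78 ± 0.03. This was the narrowest spread of the 10, and 0.309% of the 5824 named genes detected on all 4 arrays had a lower SD. Under the 6 other scalings, corrections and probe rules its SD stayed between 0.026 and 0.066. Atp6v1h, whose product regulates the coupling of ATP hydrolysis to proton flow, was at −1.45, −1.58, −1.45 and −1.30, a mean of −1.45 ± 0.11.

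Atp6v1e1 encodes a peripheral stalk subunit and stood apart from the other members. Its level was −5.52 on replicate 1 against −3.28, −2.80 and −3.26 on replicates 2 to 4, a mean of −3.72 ± 1.22. Replicates 2 to 4 lay within 0.48 of each other, and replicate 1 was 2.23 below the next array, or 4.70-fold lower. The highest array was 6.55-fold above the lowest. Replicate 1 was also lowest before any scaling: the processed intensity was 31.3 units on replicate 1 against 60.1, 110 and 86.7 on replicates 2 to 4. The unscaled gap was smaller, and scaling to the reference, which was highest on replicate 1, widened it. The other 9 genes all had their highest intensity on replicate 1, the brightest array, as did 96.1% of the 5824 genes. Replicate 1 gave the lowest intensity for 0.824% of them, 48 genes. No other of the 5824 genes had a level on replicate 1 as far below its next array at this scaling. The replicate 1 signal was still 5.56 times the 99th percentile of the negative controls, against 10.96, 21.7 and 14.6 times on the other arrays. Without replicate 1 the SD was 0.272, and the gap to the next array was 1.47 after normexp correction. Atp6v1e1 has 1 named probe at 1 spot, so no second measurement on the array bears on this value. By Dixon's test for a single outlying value, the gap of the extreme array over the range of the 4 levels was 0.823 for Atp6v1e1, 0.814 for Atp6v0b and 0.781 for Atp6v0c. These were the highest ratios of the 10 members, and all were under the 95% critical value for 4 values, so no member passed. No spot of any member was marked as an outlier or saturated.

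**Figure D1:**
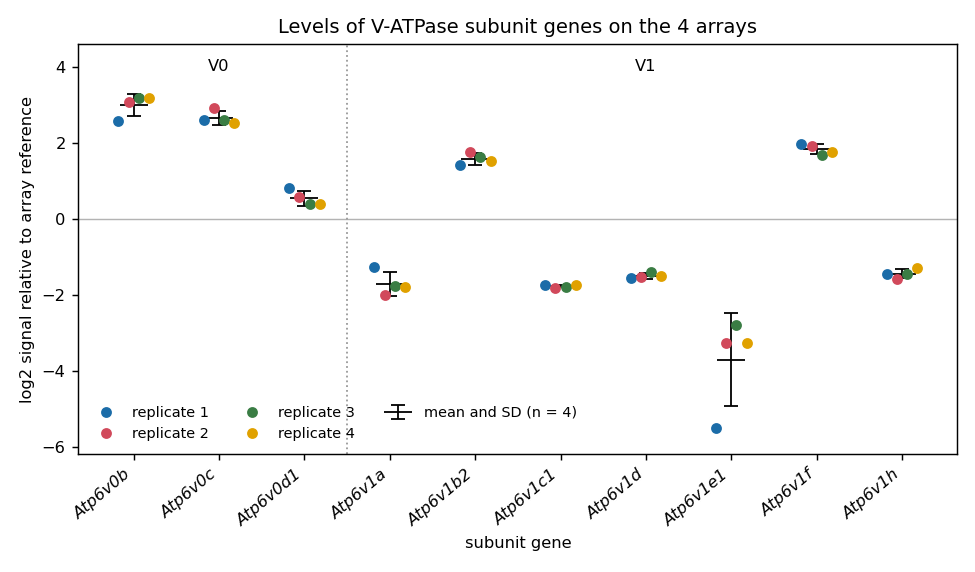
Level of each subunit gene (log2 signal relative to the array's reference, vertical axis) on the 4 arrays, 1 coloured point per replicate, with the mean and SD (n = 4) as black bars, V0 genes left and V1 genes right. Replicate 1 of Atp6v1e1, at −5.52, lies well under the other 3 points of that gene, while the points of Atp6v1c1 nearly coincide.

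**Figure D2:**
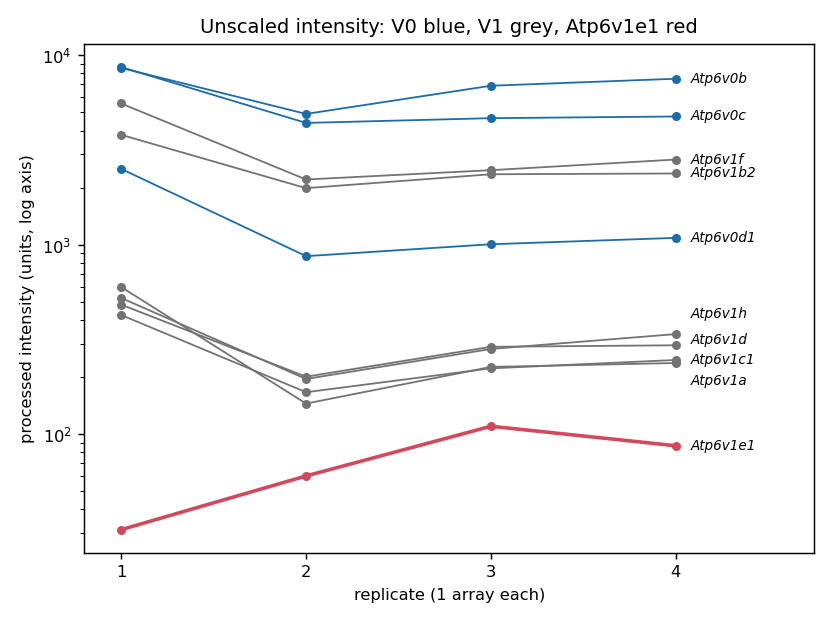
Processed intensity before scaling (log axis) of the 10 genes on the 4 arrays; lines only join the points of 1 gene. Atp6v1e1 (red) is lowest on replicate 1 at 31.3 units, and the other 9 genes are highest there.

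The spread of the members between arrays was then set beside that of all genes. The median SD was 0.162 over the 10 members and 0.225 over the 5824 genes, and it was 0.151 over the 9 members other than Atp6v1e1. It was 0.201 for the 3 V0 genes and 0.128 for the 7 V1 genes. These medians are not matched for level. Among genes within 0.5 of a member's mean level, the median SD ran from 0.159 (Atp6v1f) to 0.213 (Atp6v1a, Atp6v1c1), and was 0.292 for Atp6v1e1. An SD above 0.5 was found for 1 member, Atp6v1e1, against 5.61% of the 5824 genes. The highest array was at least 2-fold above the lowest for the same 1 member, against 8.98%, and at least 1.5-fold for 3, Atp6v0b, Atp6v1a and Atp6v1e1, against 38.8%. These shares were near the background for 2-fold and 1.5-fold differences, given 10 genes.

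Error between spots gives a scale for these SDs. For 1594 probes printed at several spots, the SD between spots on 1 array had a median of 0.098. Among probes within 0.5 of each member's mean level, the SD between arrays was 6.87 times the median spot SD for Atp6v1e1 (56 probes), 3.33 times for Atp6v0b and 2.83 times for Atp6v1a. It was 0.616 times for Atp6v1d and 0.262 times for Atp6v1c1. The remaining 5 members lay between 1.01 and 2.19 times. Only Atp6v1e1, Atp6v0b and Atp6v0c had an SD between arrays above the 95th percentile of the spot SD at like level. For Atp6v1a that percentile was 0.370, against its SD of 0.320. Among the 1006 genes within 0.5 of the level of Atp6v1e1 the median SD was 0.292, and 99.7% of them had a lower SD than this gene. Among genes of like level the share with a lower SD was 82.9% for Atp6v0b, 80.7% for Atp6v1a, 3.82% for Atp6v1d and 0.221% for Atp6v1c1. It was 56.4% for Atp6v0d1, 48.7% for Atp6v0c, 45.7% for Atp6v1b2, 32.0% for Atp6v1f and 13.3% for Atp6v1h. No member was printed at more than 1 spot, so the limma test between arrays on repeated spots could not be made for any of them.

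**Figure D3:**
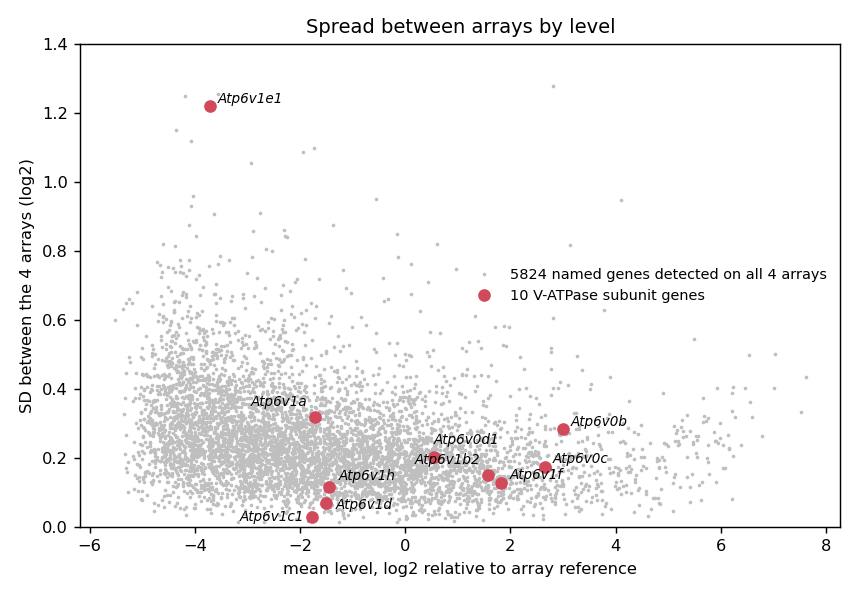
SD between the 4 arrays (log2, vertical axis) against mean level for the 5824 named genes detected on all 4 arrays (grey) and the 10 subunit genes (red). Atp6v1e1, with an SD of 1.22, is among the most variable genes, and the other 9 lie at 0.32 or lower.

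The median deviation of the 10 genes from their own means was −0.03, 0.05, −0.01 and −0.03 on replicates 1 to 4. Over all 5824 genes it was 0.06, −0.01, −0.01 and −0.01. Replicate 1 was the highest array for 4 members (37.8% of all genes). It was the lowest for 4 (25% of all genes), namely Atp6v0b, Atp6v1b2, Atp6v1d and Atp6v1e1. The latter share depended on level. Among genes within 0.5 of the mean level of these 4 members, replicate 1 was lowest for 48.7%, 34.1%, 20.0% and 20.6%, in that order. The count of members lowest on replicate 1 was 7 with either of 2 other references, the 75th percentile over all gene probes or the median of detected probes. Under these the median of all genes on replicate 1 moved from 0.06 to −0.04 and −0.02. With these references replicate 1 was lowest for 36.8% and 34.5% of all genes. The median deviation of the members was then −0.13 and −0.11 on replicate 1, and 0.14 and 0.10 on replicate 2. Between replicates 3 and 4 the median absolute difference was 0.079 for the members and 0.158 for all genes. Between replicates 1 and 2 it was 0.276 and 0.316. The 5 genes nearest to the mean profile of the 10 members over the 4 arrays were Rps2, Higd2a, Dlst, Cnot10 and Prdx5, at Euclidean distances from 0.017 to 0.026. Atp6v1e1 itself lay 1.92 from this profile, the farthest of the members, and set most of it. The mean deviation on replicate 1 was −0.16 over the 10 members and 0.02 over the 9 without Atp6v1e1.

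For 3 members a second probe could be compared. Both probes of Atp6v0c had their highest level on replicate 2, and their SDs were 0.17 and 0.12. Their lowest arrays differed, replicate 4 for the brighter probe and replicate 3 for the other. The second probe of Atp6v1h had an SD of 0.29 against 0.11, with −1.35 on replicate 1 and −2.05 on replicate 2. Its highest array was replicate 1, while that of the brighter probe was replicate 4. Both probes were lowest on replicate 2. The second probe of Atp6v1a was well above background on replicates 1 and 3 only, at −5.04 and −5.25. Its highest array was replicate 1, as for the brighter probe. Its lowest was replicate 4, where it did not pass, while that of the brighter probe was replicate 2. The SDs were 0.48 for the second probe and 0.32 for the brighter.

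Many subunits have isoforms encoded by separate genes, of which some are made in most tissues and others mainly in kidney, testis, brain or bone. Detection on every array held for 35.2% of all named genes. Of 14 other measured V-ATPase subunit genes and accessory genes, 6 were detected on every array, 2 on some and 6 on no array. Among those detected on all 4 arrays were Atp6v0a1 at −2.19 ± 0.20, Tcirg1 at 2.77 ± 0.38, Atp6v0e1 at 1.39 ± 0.10 and Atp6v1g1 at 1.85 ± 0.19. Tcirg1 encodes the a3 isoform of the large V0 subunit, known from lysosomes and the bone-resorbing membrane of osteoclasts. It was at 2.70, 3.29, 2.71 and 2.36 on replicates 1 to 4, highest on replicate 2 and lowest on replicate 4. The accessory subunit genes Atp6ap1, at 1.05 ± 0.12, and Atp6ap2, at −2.55 ± 0.23, were the other 2.

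The 6 genes not detected on any array were Atp6v0e2, Atp6v1b1, Atp6v1c2, Atp6v1e2, Atp6v1g2 and Atp6v1g3. Atp6v1b1 is the isoform of kidney and inner ear, Atp6v1e2 that of testis and Atp6v1g2 that of neurons. For Atp6v1b1 the intensity was 0.572 to 0.669 times the 99th percentile of the negative controls, and for Atp6v1e2 0.663 to 0.754 times. Each of Atp6v1b2, Atp6v1c1, Atp6v1e1 and Atp6v1g1 was thus well above background on all 4 arrays while its sister isoforms were on none. A probe that does not pass may still belong to an expressed gene. Atp6v0d2, the sister isoform of Atp6v0d1 known from osteoclasts, was in between. It was well above background on replicates 1 and 4, at −3.77 and −4.22, and not on replicates 2 and 3, at −5.53 and −6.05. The osteoclast markers Ctsk, Acp5 and Calcr were detected on no array. Atp6v0a2 passed on 3 arrays.

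**Figure D4:**
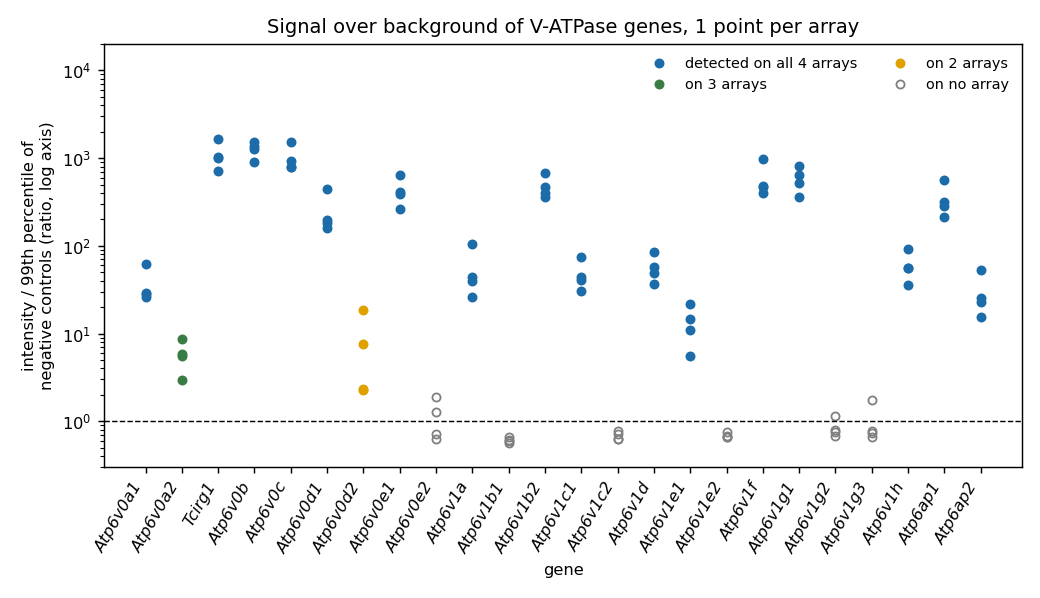
Processed intensity divided by the array's 99th percentile of negative controls (log axis; dashed line at 1) for 24 V-ATPase genes, 1 point per array and coloured by the number of arrays on which the gene was well above background. The 6 genes detected on no array (open circles) lie near the dashed line, and every other gene is above it on all 4 arrays.

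Genes that work with the pump were detected in part. For assembly and regulation of the pump, 8 of 15 listed symbols were measured, and only Rogdi, of the complex that reassembles V1 and V0, was detected on all 4 arrays, at −0.22 ± 0.13. Over all named genes the share was 35.2%. Asking only for signal over the 99th percentile of negative controls gave 4 such genes, against 44.4% of all named genes, and leaving out replicate 2 gave 3, against 37.8%. Tmem199, Oxr1 and Ccdc115 passed on some arrays, and 4, with Dmxl2 and Wdr7, on none. Of 12 lysosomal ion channels and transporters, 5 passed on every array and 3 on some, while 4, with Clcn5 and Mcoln3, passed on no array. The count of 5 stands beside 35.2% of all named genes. It was 8 under the negative control rule, beside 44.4% of all named genes. The chloride-proton exchanger gene Clcn7 was at −4.56 ± 0.48, its partner Ostm1 at −3.14 ± 0.19, Clcn6 at −3.70 ± 0.33 and the calcium channel gene Mcoln1 at −0.28 ± 0.19.

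The transcription factors of the TFEB family were expressed. Tfeb, Tfe3 and Mitf were detected on all 4 arrays, as were 35.2% of all named genes, and Tfec passed on 3. Tfeb was at −2.96, −1.99, −2.50 and −3.00 on replicates 1 to 4, highest on replicate 2. Mitf was at −2.99, −1.71, −1.59 and −2.30, with replicate 1 lowest and an SD of 0.64. Tfe3 was at 0.25 ± 0.25. The 3 detected factors had a median SD of 0.47, against 0.162 for the 10 subunit genes.

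On the lysosomal surface the pump works with the Ragulator complex and the Rag GTPases, which bring the growth regulator mTORC1 to the membrane. Of 14 measured genes of this group, 11 passed on every array, 2 (Rraga and Mtor) on some and 1 (Fnip1) on none. Of all named genes, 35.2% passed on every array. The Ragulator genes Lamtor1, Lamtor2, Lamtor3 and Lamtor4 were at −0.67 ± 0.26, 2.97 ± 0.14, −2.26 ± 0.25 and 1.13 ± 0.16. The median SD of the 11 genes was 0.200.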

How the data were processed

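Per the labels and the file headers, the deposited files hold spot intensity made by the authors with Agilent Feature Extraction 11.0.1.1 (protocol GE1_1100_Jul11, design 074036, 1 colour). Background subtraction and spatial detrending are already in the processed intensity, which has a floor above 0 and no normalization between arrays. Deposited flags of 0 or 1 mark spots well above background, outlying or saturated. Probe positions were not given in the sources used here.

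Control spots and outlier spots were left out, spots of a probe were averaged as log2, and each array's 75th percentile over probes detected on all 4 arrays (22.9% of 45598) was subtracted. Detection of a probe needed over 50% of its spots well above background, and detection of a gene needed 1 such probe. The brightest probe gave the gene's level. The 5830 genes detected on all 4 arrays could pass by different probes on different arrays. Of these, 5824 had a single probe that was detected, with a value, on all 4. Accessions without version were matched to RefSeq symbols (46.3% of probes, GRCr8 table, names only). The array number, 4, limits the precision. Levels were described, and Dixon's gap ratio was taken for each gene as a test for 1 outlying array. The limma test between arrays that was planned on repeated spots was not run, since no member has repeated spots. Named were all members, the 5 genes nearest to their mean profile and, for each pathway list, the first 4 genes detected on all arrays and the first 2 on none. Further names, and those of the marker lists, were chosen after their values were seen. Members and lists were chosen with earlier results of these data known. Software was R 4.3.3 with limma 3.58.1 (normexp, quantile) and Python 3.11.15 with pandas 2.3.3, numpy 2.4.6 and matplotlib 3.10.9, and the steps were tested on simulated data.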

Additional observations from a re-analysis of the deposited data

How the results depend on the processing

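All 10 members were detected on all 4 arrays under the 2 other detection rules and with each replicate left out. The median SD of the members, 0.162, was 0.111 after normexp correction and 0.120 to 0.188 with a replicate left out. That of all genes, 0.225, was 0.183 after normexp, 0.464 without the filter on dim probes and 0.189 to 0.240 with a replicate left out. Members with an SD above 0.5, and members at least 2-fold apart, numbered 0 to 1 with a replicate left out, 0 being without replicate 1. Members lowest on replicate 1 numbered 7 under 2 other scalings (all gene probes, median of detected probes) and 4 in the main values. The gap of Atp6v1e1, 2.23, was 1.47 after normexp and 2.22 to 2.26 with another replicate left out. The normexp setting took median spot signals and their background in place of processed intensity, and added an offset of 50. These parts were not tested apart. Detected assembly and regulation genes, 1 in the main values, numbered 4 and lysosomal ion channels 8 under the negative control rule, and the former 1 to 3 with a replicate left out. Under the negative control rule, 44.4% of all named genes were detected on all 4 arrays. Without Atp6v1e1, an alternative chosen after seeing the data, the median SD was 0.151. The cause of the changes was not tested. The planned test between arrays and its alternatives were not run, since no member has repeated spots. No paired analysis was possible because there is 1 group.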
